A study of Caenorhabditis elegans with 2 samples.

Results

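The 50 genes described here build the vacuolar proton pump (V-ATPase) or carry out autophagy in Caenorhabditis elegans. Of these, 29, or 58%, had a LSY-2 peak in their promoter window, beside 21.1% of all protein-coding genes. The 50 were chosen by name among 19973 protein-coding genes of the nuclear chromosomes. All genes named vha-, atg-, epg- or lgg- with a number were taken, together with bec-1, unc-51, hlh-30, mxl-3, sqst-1, lmp-1 and cpl-1. This gave 20 V-ATPase genes, 26 autophagy genes, 2 lysosome genes and 2 transcription factor genes. The choice was by name and used no value of a gene, though results of these data were known when the group was proposed.

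The V-ATPase pumps protons into lysosomes and other compartments with a cytosolic V1 sector that hydrolyses ATP and a membrane V0 sector that carries the protons. Autophagy encloses cytoplasm in a double membrane, which fuses with the lysosome, where the cargo is degraded by acid hydrolases. Both are used by starved worms, and in the worm the factor HLH-30, the homolog of mammalian TFEB, is known to act on genes of both through E-box sequences.

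LSY-2 is a C2H2 zinc finger transcription factor. Its DNA contacts were mapped by chromatin immunoprecipitation and sequencing in whole first-stage (L1) larvae that hatched and starved after bleaching, of mixed sex. All worms were of strain OP367, with the genotype unc-119(tm4063) III; wgIs367, in which an inserted transgene provides LSY-2 with an eGFP tag, and the labels name lsy-2 as the antibody. What drives the transgene is not given in the sources used here. The study has 1 group with 2 biological replicates and no second condition, so peaks are set beside all other genes and the replicates beside each other. Whole larvae were used, so a site bound in a few cells and one bound weakly in many cannot be told apart.

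The authors' thresholded list, built from both replicates, held 6850 peaks, with signal values from 68.8 to 24270 and a median of 169. A longer list from the pooled reads, and one for each replicate, took in background and ended at 30000 regions. Depth in reads is unknown, so counting error cannot be given for a signal. A gene was counted as having a promoter peak when the summit of a thresholded peak fell between 1000 bp before and 200 bp after the outermost annotated 5′ end of the gene. Signal is the authors' own value, and it was used only to describe and rank sites. Pooled values run at about the sum of the replicates' values, so replicate values are compared with each other and not with the pooled ones. At the 6616 thresholded peaks found in both replicates, values in replicate 2 were higher by a median log2 ratio of 0.20, and the ratios spread with an SD of 0.52. A difference under 1.43-fold is therefore within 1 SD of the replicate difference. That SD covers peaks of all strengths and is not given for strong peaks alone. It is a rough scale and not the error of a difference between 2 sites. Nothing says that the replicates were grown apart beyond their label as biological replicates.

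The DNA under the strongest sites is shown first, because these 4 summits, at vha-1, vha-8, lgg-2 and vha-15, were the only ones in the group's promoter windows with a signal of at least 1000. Each line holds the summit base and 50 bases of ce11 on each side, read from the RefSeq sequence on the strand of the named gene, and none overlaps an annotated exon. The hlh-30 site is added because that factor is itself linked to this gene group. The spans are chrIII:9780751-9780851 on the plus strand for vha-1, chrIV:6790565-6790665 on the plus strand for vha-8, chrIV:10936145-10936245 on the minus strand for lgg-2, chrX:2237588-2237688 on the plus strand for vha-15 and chrIV:4035000-4035100 on the minus strand for hlh-30. Capitals mark the words GAGAGA and CGTCTC on either strand, 2 of the words that were searched around all summits, and the vha-1 stretch holds neither.
vha-1: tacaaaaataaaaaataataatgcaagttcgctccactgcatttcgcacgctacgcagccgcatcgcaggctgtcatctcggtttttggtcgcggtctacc
vha-8: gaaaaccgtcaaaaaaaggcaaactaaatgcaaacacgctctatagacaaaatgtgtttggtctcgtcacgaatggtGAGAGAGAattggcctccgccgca
lgg-2: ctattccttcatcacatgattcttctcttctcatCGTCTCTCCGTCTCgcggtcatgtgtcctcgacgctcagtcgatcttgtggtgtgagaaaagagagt
vha-15: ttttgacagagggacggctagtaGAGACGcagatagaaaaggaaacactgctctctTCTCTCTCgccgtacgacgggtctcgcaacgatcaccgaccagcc
hlh-30: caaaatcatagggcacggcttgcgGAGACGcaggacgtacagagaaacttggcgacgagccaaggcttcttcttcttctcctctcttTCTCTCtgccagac

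Across the group, 29 of 50 genes, or 58%, had a promoter peak, where 21.1% of all protein-coding genes did. The share has a 95% Wilson interval of 44.2% to 70.6%, which covers counting error only. V-ATPase genes had one in 12 of 20 cases and autophagy genes in 14 of 26, or 53.8%. Counts by role, given below for small sets, stand beside the same 21.1%. Of the 21 genes without a thresholded peak, 14 had a weaker region of the pooled list in the window, which raises the group to 43 of 50, or 86%, against 37.7% of all genes. The remaining 7 had no listed region there, namely vha-6, vha-7, vha-18, vha-20, bec-1, atg-10 and atg-4.2. No test was run on these shares, since the group was chosen with results of these data known.

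The peaks were frequent but ordinary in strength. Their signals had a median of 277 and quartiles of 183 and 564, beside a median of 283 and quartiles of 147 and 548 over all 4216 protein-coding genes with a promoter peak. A signal of at least 1000 was reached at 4 of the 29, or 13.8%, and at 12.3% of all genes with a peak. The strongest, at vha-1, ranked 252 in the thresholded list.

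**Figure D1:**
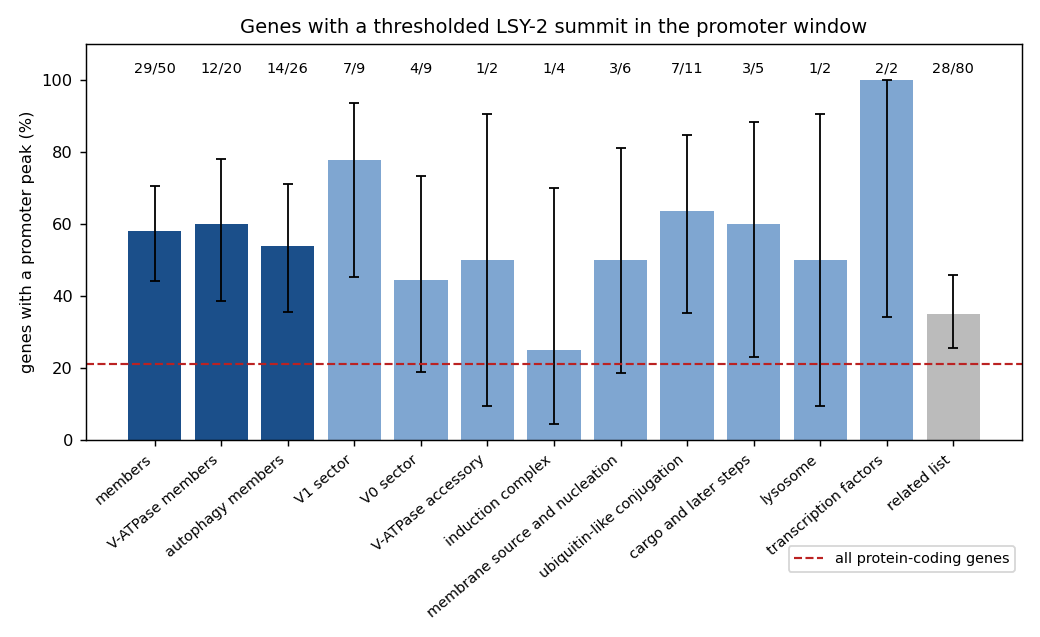
Share of genes with a thresholded LSY-2 summit in the promoter window, in percent, for all 50 members, for the V-ATPase and autophagy genes, for each role and for the related list of 80 genes. Error bars are 95% Wilson intervals, the numbers above are genes with a peak over genes in the set, and the dashed line is the 21.1% of all protein-coding genes; the members' bar stands at 58% and the induction complex bar at 1 of 4.

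The V1 sector of the proton pump carried peaks at 7 of 9 genes, the catalytic core included. The highest was vha-8, which encodes the E subunit of the peripheral stalk, with a thresholded signal of 1322, 582 in replicate 1 and 736 in replicate 2. Its peak spanned 6790450 to 6790803 on chromosome IV with the summit at 6790615, which is 459 bp upstream of vha-8 and 127 bp upstream of the divergent gene C17H12.2. vha-15, one of the pair of H subunit genes, followed with 1034 (503 in replicate 1 and 543 in replicate 2) and a peak from 2237453 to 2237801 on the X chromosome, 273 bp upstream of the gene. These peaks of vha-8 and vha-15 differed by less than 1 SD of the replicate difference, with vha-8 the higher in both replicates.

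The nucleotide-binding subunits came next. vha-12, for the B subunit, had a signal of 640, with 251 and 389 in replicates 1 and 2, and its peak lay from 4190603 to 4190919 on X, 340 bp upstream. vha-13, for the catalytic A subunit, had 475, with 186 and 283, and its summit 557 bp upstream lay in the 3′ UTR of another gene. vha-15 exceeded vha-12 by 1.61-fold in the thresholded list, 2.01-fold in replicate 1 and 1.39-fold in replicate 2. That difference was over 1 SD of the replicate difference in the thresholded list and replicate 1, and within it in replicate 2. Between vha-12 and vha-13 the difference was within it at 1.35-fold, with vha-12 the higher in both replicates.

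Weaker V1 peaks stood at vha-14, for the D subunit of the rotor, with 367 (196 in replicate 1 and 170 in replicate 2), at vha-9, for the F subunit, with 216 (125 and 89.6), and at vha-10, for the G subunit, with 154 (72.3 and 79.8). vha-11, for the C subunit, had only a pooled region of 40.3. The other H subunit gene, vha-18, had no listed region, and its nearest thresholded summit lay 6368 bp downstream of its 5′ end, past the end of the gene.

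The V0 sector had peaks at 4 of 9 genes. Of the 3 genes for the proton-carrying c subunit, vha-1 had the strongest peak of the whole group, with a signal of 1456, 707 in replicate 1 and 752 in replicate 2. It spanned 9780620 to 9780983 on chromosome III and its summit was nearly midway between 2 divergent genes, 453 bp upstream of vha-1 and 447 bp upstream of sqv-3. vha-2 lies 400 bp behind vha-1 on the same strand, so this summit is outside its own window, where a pooled region of 19.2 was listed. vha-3, the remaining c gene, had a pooled region of 27.4, and its nearest thresholded summit, of 278, lay outside the window at −1098 bp. vha-11 follows vha-3 at a gap of 892 bp on the same strand, and the same summit was the nearest to it.

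The other V0 peaks were at vha-16, vha-17 and vha-4. vha-16, for the d subunit, had 355 (157 in replicate 1 and 194 in replicate 2), vha-17, for the e subunit, had 174 (85.2 and 84.5), and vha-4, for the c″ subunit, had 93.8 (42.8 and 43.9). The vha-4 peak was 15.5 times weaker than that of vha-1 in the thresholded list, and 16.5 and 17.1 times weaker in the replicates. Unlike these, the 3 vha- genes for the large a subunit had none. vha-6, known from the intestine, and vha-7 had no listed region, and vha-5, known from the epidermis and excretory cell, had a pooled region of 20.4. The a subunit gene outside the vha- names, unc-32, had a peak of 288 (131 in replicate 1 and 152 in replicate 2).

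Of the accessory proteins, vha-19, the homolog of mammalian Ac45, had a peak of 160, with 74.5 and 83.8 in the replicates. It lay from 3368653 to 3369028 on chromosome IV, 356 bp upstream of the gene. vha-20, the homolog of the prorenin receptor, had no listed region in its window.

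**Figure D2:**
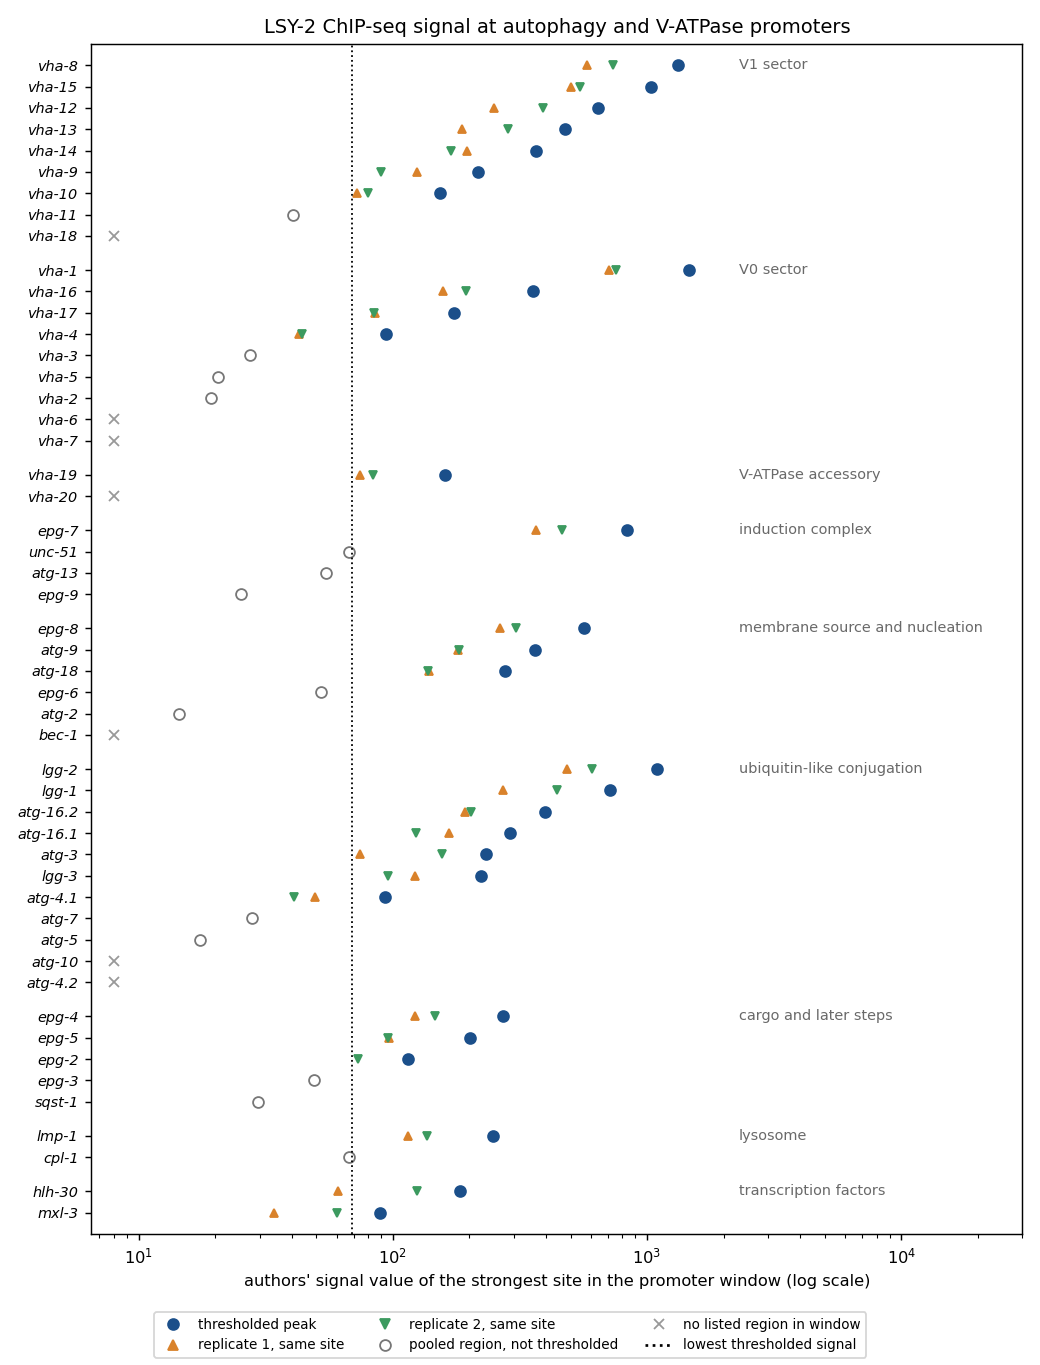
Authors' signal value on a log axis at the strongest site in the promoter window of each of the 50 genes, grouped by role. Filled circles are thresholded peaks, triangles the same site in replicates 1 and 2, open circles pooled regions that were not thresholded, crosses genes with no listed region, and the dotted line the lowest thresholded signal, 68.8; unc-51 and cpl-1 sit just left of that line and the vha-1 peak is the farthest right at 1456.

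Autophagy begins with the kinase complex of UNC-51, the worm ULK1. Here a peak was found at 1 of 4 genes, or 25%, near the 21.1% of all protein-coding genes. epg-7, whose product is a scaffold of the FIP200 and ATG11 type, had a signal of 833, with 365 in replicate 1 and 464 in replicate 2. The peak lay from 7334356 to 7334723 on X with its summit 155 bp upstream. The kinase gene unc-51 itself had a pooled region of 67.4, with 39.2 and 27.8 in the replicates, only 1.02-fold under the lowest thresholded signal. atg-13 had 54.5 (25.8 in replicate 1 and 36.0 in replicate 2) and epg-9, the ATG101 gene, 25.2 (16.5 and 10.8).

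The gap between unc-51 and the lowest thresholded signal is far smaller than the 1.43-fold replicate difference. Agreement between replicates was part of how the list was made, and why unc-51 was left out was not tested. cpl-1, the cathepsin L gene, had a pooled region of 67.0, with 33.7 in replicate 2 and no region within 100 bp in replicate 1. The windows of both genes held a region among the 6850 strongest of replicate 1, and neither held such a region of replicate 2. At cpl-1 that replicate 1 region was more than 100 bp from the summit of the pooled region. The weakest promoter peaks of the group were at mxl-3 with 88.9, atg-4.1 with 93.1 and vha-4 with 93.8. They ranked 5649, 5476 and 5442 among the 6850 thresholded peaks.

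Genes of membrane supply and nucleation had peaks in 3 of 6 cases. epg-8, the ATG14 counterpart in the lipid kinase complex, had 564 (263 in replicate 1 and 306 in replicate 2) and spanned 9934376 to 9934647 on chromosome I, 223 bp upstream. The transmembrane protein gene atg-9 had 363 (181 and 182), and atg-18, for a phosphoinositide-binding WIPI protein, 277 (138 and 138). bec-1, the Beclin gene of the same kinase complex as epg-8, had no listed region in its window, and the nearest thresholded summit, of 223, lay outside it at −1142 bp. The windows of epg-6, a second WIPI gene, and of the lipid transfer gene atg-2 held pooled regions of 52.2 and 14.4.

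The ubiquitin-like conjugation genes had 7 of 11, and both Atg8 homologs were among them. lgg-2, the LC3 homolog, had a signal of 1093, with 485 in replicate 1 and 608 in replicate 2. Its peak spanned 10936014 to 10936410 on chromosome IV with the summit at 10936195, 292 bp upstream. lgg-1, the GABARAP homolog, was the only gene of the 50 with a pair of thresholded summits in its window. The stronger had 714 (271 and 444), spanned 6348404 to 6348772 on chromosome II and lay 897 bp upstream, and the weaker had 222 (99.7 and 135) at 156 bp upstream.

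lgg-2 exceeded lgg-1 by 1.53-fold in the thresholded list, by 1.79-fold in replicate 1 and by 1.37-fold in replicate 2. The order of the Atg8 genes is therefore the same in both replicates, but in replicate 2 the difference is within 1 SD of the replicate difference. The third ubiquitin-like gene, lgg-3, the ATG12 homolog, had 223 (122 in replicate 1 and 95.6 in replicate 2) at a summit 32 bp upstream of the divergent rgs-5 and 510 bp upstream of its own gene.

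Both atg-16 genes, whose products direct conjugation to the membrane, had peaks. atg-16.2 had 396 (191 in replicate 1 and 203 in replicate 2) and atg-16.1 had 290 (166 and 124). This 1.36-fold difference is within 1 SD of the replicate difference. By replicate it was 1.15-fold in replicate 1, also within it, and 1.64-fold in replicate 2, which is over it. The E2-like enzyme gene atg-3 had 231, with 74.5 and 155 in the replicates, at a summit 34 bp upstream of Y55F3AM.9. Of the protease pair that processes the Atg8 proteins, atg-4.1 had 93.1 (49.4 and 40.6) and atg-4.2 no listed region. The E1-like gene atg-7 and atg-5 had pooled regions of 27.8 and 17.4, and the E2-like gene atg-10 had no listed region.

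Later steps had peaks at 3 of 5 genes. epg-4, the EI24 homolog, had 272 (122 in replicate 1 and 147 in replicate 2) from 7181900 to 7182093 on chromosome III, 182 bp upstream. epg-5, needed for fusion with the lysosome, had 200 (96.3 and 95.3). epg-2, a cargo adaptor for granule degradation in worm embryos, had 115, with 72.9 in replicate 2 and no region within 100 bp in replicate 1. The p62 homolog sqst-1 and the VMP1 homolog epg-3 had pooled regions of 29.3 and 48.8.

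At the lysosome, lmp-1, the LAMP gene, had a peak of 248, with 115 and 136 in the replicates, from 6378504 to 6378701 on X and 915 bp upstream. This was the most distant summit of the group. cpl-1 had no thresholded peak in the window, and a weak one of 85.7 lay 584 bp inside the gene.

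Both transcription factor genes had promoter peaks below the members' median of 277. Only the mxl-3 peak was also below the median of the whole thresholded list, 169. hlh-30 had 183, with 60.8 in replicate 1 and 125 in replicate 2, at a 100 bp peak from 4035013 to 4035112 on chromosome IV, 99 bp upstream of the outermost 5′ end. mxl-3, for a Max-like factor that opposes HLH-30 at lipase genes in the worm, had 88.9, with 33.9 and 60.3, from 13351358 to 13351733 on X, 742 bp upstream. These values were 2.05-fold and 1.78-fold higher in replicate 2, more than 1 SD of the replicate difference.

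hlh-30 also had summits along the gene, which is 20159 bp long. It has 13 annotated coding transcripts with 10 different 5′ ends, and 7 thresholded summits lay in its introns. The strongest had 551 (212 in replicate 1 and 341 in replicate 2) at 14896 bp from the outermost 5′ end, and another of 407 (184 and 230) lay at 10586 bp. One of 255 (92.9 and 168) lay 216 bp upstream of an internal transcript start. Of these 7 summits, 3 had a higher signal than the one at the outer promoter.

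Intronic summits were also found at 6 other members, atg-2, cpl-1, epg-5, epg-6, epg-9 and lgg-2. The share of all protein-coding genes with such summits was not counted, so this is a description of single genes only. The counts were 3 at atg-2, which is 10504 bp long, 3 at epg-9, which is 6324 bp long, and 1 at each of the others. The strongest was at epg-9, with 1055 (492 in replicate 1 and 562 in replicate 2) at 1018 bp from the 5′ end, far above the 25.2 in its window. epg-6 had 505 (257 and 255) at a site 282 bp inside the gene and 250 bp upstream of a transcript that starts later. lgg-2 had 643 (288 and 353) at 391 bp in addition to its promoter peak. When every transcript's 5′ end was given a window, atg-2, cpl-1, epg-6 and epg-9 were added. The group then reached 33 of 50, or 66%, beside 4538 of all 19973 genes, or 22.7%.

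**Figure D3:**
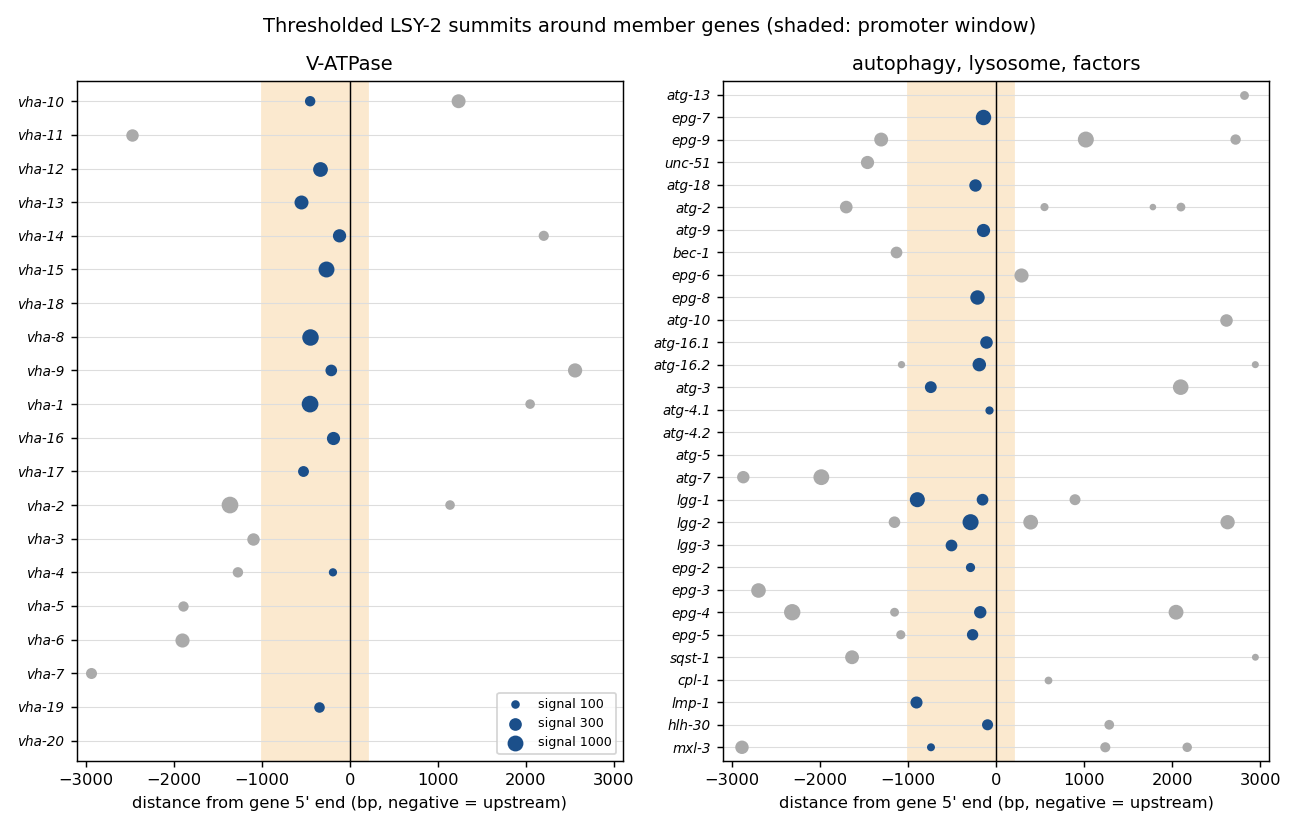
Thresholded LSY-2 summits within 3000 bp of the gene 5′ end of each member, with distance in bp on the horizontal axis (negative is upstream) and marker area growing with the log of signal. Blue summits are inside the shaded promoter window and grey ones outside, and all 29 strongest promoter summits lie upstream of the 5′ end. Of the members without a promoter peak, 13 have an upstream summit between 1000 and 3000 bp away. They are vha-2, vha-3, vha-5, vha-6, vha-7, vha-11, bec-1, unc-51, sqst-1, atg-2, atg-7, epg-3 and epg-9. The summit at vha-2 is the promoter summit of vha-1, and vha-3 and vha-11 have the same summit. The share of all genes with such a summit was not counted.

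All 29 promoter summits were upstream of the 5′ end, between 83 and 915 bp away, and 22 of them within 500 bp. Their median position was 273 bp upstream, with quartiles at −459 and −191 bp. All genes with a promoter peak had a median of −226 bp and quartiles at −430 and −121 bp, so most of their summits were within 500 bp too. The annotation places 26 of the members' summits outside protein-coding genes, a description with no share of all promoter summits beside it. Those of vha-10 and epg-2 lay in introns of another gene.

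The members were also counted by the arrangement of their nearest upstream gene, in classes too small to order. Where the nearest upstream gene was on the opposite strand and overlapping or within 1000 bp, 7 of 9 members had a peak. Of all such genes, 41.2% had a peak. Among the 7 was epg-2, whose opposite-strand neighbour tpxl-1 leaves a gap of 0 bp, so this class is not made of divergent promoters alone. With a same-strand neighbour within 1000 bp the count was 7 of 15, beside 15.8% of all such genes, and with no gene that near it was 15 of 26, beside 15.6%. A shared summit was found at 6 members, atg-3, lgg-3, vha-1, vha-4, vha-8 and vha-17, and in each case the partner was divergent and nearer to the summit. This is 20.7% of the members with a peak, and 47.8% of all genes with a peak shared their summit with another gene. When a summit counted only for the nearest 5′ end, these 6 dropped out, which left 23 of 50, with 8 of 20 V-ATPase genes, beside 3218 of all 19973 genes.

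**Figure D4:**
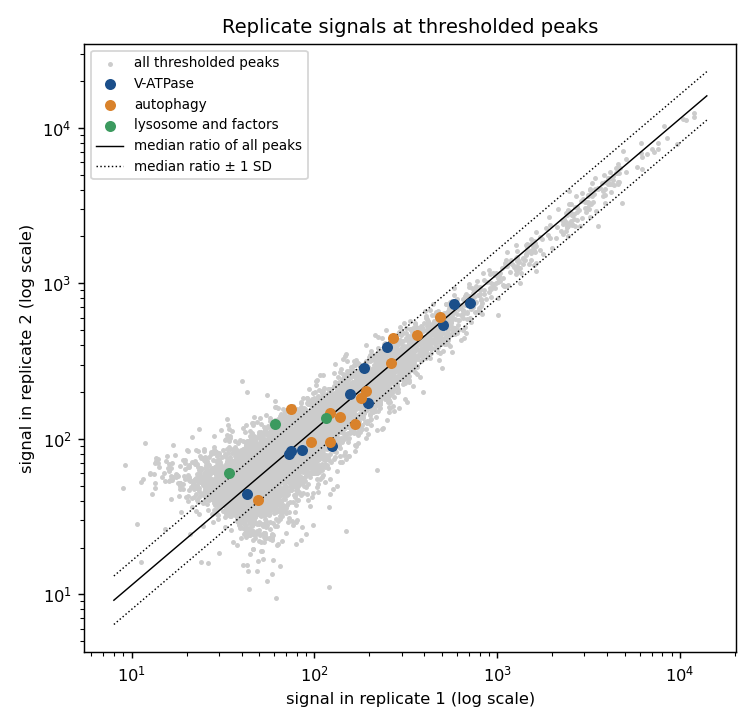
Signal in replicate 1 against replicate 2 on log axes at the 6616 thresholded peaks found in both, with the promoter peaks of V-ATPase, autophagy, and lysosome and factor genes in colour. The solid line is the median ratio of all peaks and the dotted lines are 1 SD around it; the atg-3, hlh-30 and mxl-3 points lie above the upper line with lgg-1 barely so, and the vha-9, atg-16.1 and lgg-3 points lie below the lower line.

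Agreement between replicates was part of how the thresholded list was made, so it is given here as a description. A region within 100 bp of the summit was listed in both replicates at 28 of the 29, with epg-2 the exception, or 96.6%, beside 97.8% of all genes with a peak. Replicate 2 had the higher value at 20 of the 28, beside 2463 of 4125 over all genes whose peak had both values. On the log2 scale the members' median ratio, replicate 2 over replicate 1, was 0.16, beside 0.08 for the promoter peaks of all genes. Around the median ratio of all thresholded peaks, 7 members lay more than 1 SD away. The share of all peaks that far away is not given, so the 7 are not called unusual. The ratio was above that band at atg-3, hlh-30, mxl-3 and lgg-1 and below it at vha-9, atg-16.1 and lgg-3, and the other 21 with both values were inside. With the 6850 strongest regions of one replicate in place of the thresholded list, replicate 2 gave the same 29 genes and replicate 1 gave 30, with unc-51 and cpl-1 added and epg-2 lost.

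Short words were counted within 75 bp of the 29 promoter summits and of all 3340 summits in promoter windows, on both strands. The E-box core CACGTG, the sequence bound by HLH-30 and by Myc and Max type factors, was near 4 of the 29 summits, or 13.8% (95% Wilson interval 5.50% to 30.6%), and near 4.70% of all promoter summits. The genes were epg-7, atg-3, atg-9 and epg-5, all of autophagy. None of the 12 V-ATPase summits had it in this window, which is too few summits for a contrast at a share of 4.70%. The core lay elsewhere in the promoter windows of vha-3, vha-4 and vha-19. The octamer TCACGTGA, which contains the core, was near the summits of epg-7 and atg-3, that is 2 of 29, where 16 of 3340 promoter summits, or 0.479%, had it.

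These 4 sites are printed on the strand of the gene in ce11, with the core or the octamer in capitals, because they lay close to the summit. The octamer was centred 4.5 bp from the summit at atg-3 and 15.5 bp at epg-7, and the core 13.5 bp at atg-9 and 52.5 bp at epg-5. The spans are chrIV:1009750-1009795 on the plus strand for atg-3, chrX:7334552-7334597 on the plus strand for epg-7, chrV:349198-349243 on the plus strand for atg-9 and chrII:6609559-6609604 on the minus strand for epg-5.
atg-3: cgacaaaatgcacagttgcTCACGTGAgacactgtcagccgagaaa
epg-7: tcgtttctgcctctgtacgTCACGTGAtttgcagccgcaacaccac
atg-9: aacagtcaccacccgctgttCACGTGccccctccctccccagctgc
epg-5: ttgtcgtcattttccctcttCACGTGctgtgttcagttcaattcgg

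Over whole promoter windows the core was less distinctive. It was present in 12 of 50 members, or 24%, and in 18.4% of all protein-coding genes. Among the 29 with a peak it was in 9, or 31.0%, beside 20.5% of all genes with a peak. Among the 21 without it was in 3, namely atg-13, sqst-1 and vha-3, or 14.3%, beside 17.8% of all genes without. The octamer was in 3 member windows, those of atg-3, epg-7 and atg-13, and in 1.89% of all. A word match describes the sequence and does not show that a factor binds there.

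Other words were more common. GAGAGA was near 13 of the 29 summits, or 44.8%, and 30.3% of all promoter summits, and CGTCTC near 12, or 41.4%, and 21.3%. The summits of lgg-2, vha-15, vha-9, vha-19, hlh-30, lgg-1, atg-18 and epg-2 had both. These windows had a median GC content of 46.4% at members and 41.7% at all promoter summits, and the part of base composition in the word shares was not tested.

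The remaining pair of words was found at members at about the share of all promoter summits. TGATAA, which holds the core bound by GATA factors, was near 3 summits, or 10.3%, beside 9.04% of all promoter summits. TATAAA, found in many core promoters, was near 3 as well, beside 9.64%.

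**Figure D5:**
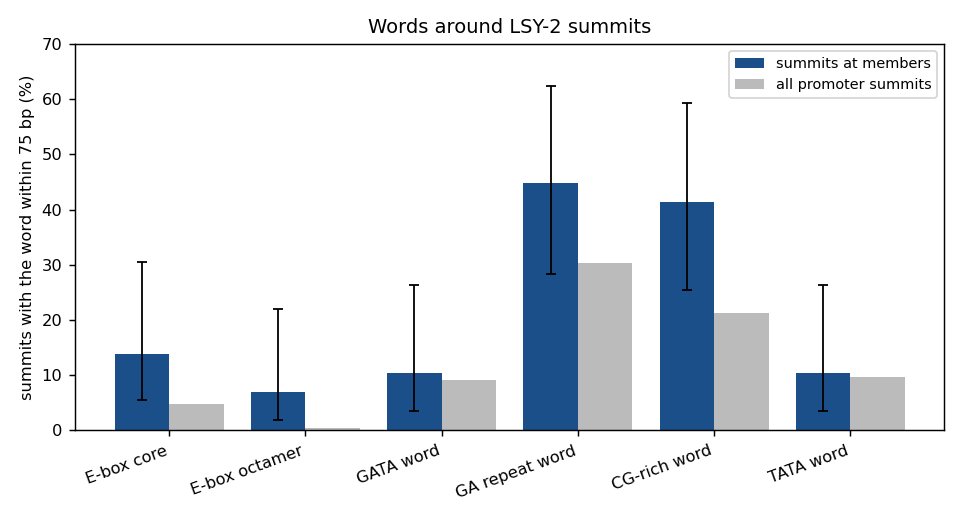
Share of summits, in percent, with each word within 75 bp on either strand, for the 29 promoter summits of the members (blue, with 95% Wilson intervals) and for all 3340 promoter summits (grey). The GA repeat word is GAGAGA and the CG-rich word is CGTCTC; for the E-box core the members' bar stands at 13.8% and the bar of all promoter summits at 4.70%.

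Related genes of the lysosome and of nutrient sensing had peaks at 28 of 80, or 35%. By count this lay between the 58% of the 50 members and the 21.1% of all protein-coding genes. The highest was ubq-2, a ubiquitin gene, with 9149 at a summit shared with frg-1. imp-2, for an intramembrane protease, had 1505 at a summit shared with enpl-1, and rab-7, for the late endosome GTPase, had 1311 (614 in replicate 1 and 692 in replicate 2) at a summit in the windows of 3 genes. Further down were ccz-1, part of the Rab7 exchange factor, with 864, glo-4, a gut granule gene, with 610, and the cystine transporter gene ctns-1 with 587.

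Within that list the lysosome membrane and lumen genes had 8 of 30, close to the 21.1% of all genes. The 5 lipl- genes for lysosomal lipases, which are known HLH-30 and MXL-3 targets, and asp-1, asp-2, asp-3, asp-4 and asp-6 for aspartyl proteases had no promoter peak. mTORC1 and nutrient-sensing genes had 4 of 14, with daf-15, the Raptor gene, at 443 and none at let-363, the TOR kinase gene. vps-15, a subunit of the lipid kinase complex of bec-1, had 561 at a summit 508 bp upstream that was shared with hmg-12. Its catalytic partner vps-34 had no listed region. No test of the difference between the lists was run.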

How the data were processed

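The authors deposited peak lists in the ce11 and ce10 builds, and the ce11 lists were used. By the README texts deposited with them, both replicates were called against the same control file, the pooled list came from both sets of alignments, and an irreproducible discovery rate analysis of these 3 lists gave the thresholded one. Per the labels, fragments were 150 to 350 bp. The aligner and caller used, and the read depth, were not given in the sources used here. Signal values are those deposited by the authors, on a scale that no source explains. The deposited q-values, as −log10, were not used to choose or rank peaks. The summit is the interval start plus the deposited offset, 1-based.

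Genes came from Ensembl release 115 (WBcel235, which is ce11) and bases from the RefSeq sequence of that assembly; all 93 start codons read for the members were ATG. Replicate values are those of the nearest summit within 100 bp. Assignment of summits to genes was tested on simulated data. Alternatives were other windows (500 and 100 bp, 2000 and 500 bp), the nearest 5′ end, every transcript's 5′ end, interval overlap, the 3425 stronger peaks, each replicate alone and other word windows and tolerances. No set test was run. Members, roles, words and the related list (81 names, of which let-512 matched no gene) were chosen with earlier results of these data known. Named with full values were the 8 members of highest signal, the strongest of each role, hlh-30, mxl-3, lgg-1, bec-1 and unc-51, and of the related list the 6 strongest, unc-32 and rab-7; other names were chosen after their values were seen. Intervals are 95% Wilson intervals. Python 3.11.15, pandas 2.3.3, numpy 2.4.6, scipy 1.17.1 and matplotlib 3.10.9 were used.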

Additional observations from a re-analysis of the deposited data

How the results depend on the processing

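Counts of genes with a promoter peak stayed within 1.5 times the main count under 9 other ways of counting, for the 50 members, the V-ATPase and autophagy genes, the related list and all protein-coding genes. The members' count was 23 with the shorter window, the nearest 5′ end or the stronger peaks, 29 without replicate 1, 30 without replicate 2 and 40 with the longer window, beside 3315, 3218, 2917, 4240, 4233 and 5413 of all genes. The longer window added bec-1, unc-51, sqst-1, atg-2, atg-7, epg-6, epg-9, vha-2, vha-3, vha-5 and vha-6. With the whole pooled list, an alternative added after seeing the data that takes in background by construction, autophagy genes had 23, the related list 54 and all genes 7531. The median summit position moved from −273 bp to −212 bp with the shorter window and to −452.5 bp with the longer one, which the window's own length sets in part. The share of member summits with CACGTG was 10.3% within 50 bp of the summit and 17.2% within 150 bp, beside 3.65% and 7.16% of promoter summits. No paired analysis was possible because there is 1 group. Read depth is unknown, so signal near 68.8 cannot be given a counting error.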
